A study of Homo sapiens with 66 samples.

Results

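A set of 8 genes that the transcription factor NRF2 is known to activate, GCLC, GCLM, TXNRD1, SRXN1, HMOX1, NQO1, SLC7A11 and OSGIN1, was followed through RNA-seq libraries of DLD-1 cells, a human colorectal adenocarcinoma line, in which a nuclear pore or RNA export protein could be degraded with auxin. They were matched by symbol, a rule that uses no measured value, but the set was chosen with earlier results of these data known. All 8 were found among the 58051 genes of the deposited count files, and all 8 were among the 17812 genes that passed the filter on low counts. The series has 66 libraries in 22 groups of 3. The tagged lines carried an auxin-inducible degron (AID) on both alleles of 1 gene, and the plant F-box protein TIR1, which auxin couples to the degron, at the RCC1 locus. Their genotypes were AID-NeonGreen-TPR, NUP153-NeonGreen-AID, NUP50-NeonGreen-AID, GAP1-NeonGreen-AID (RANGAP1), AID-FLAG-NXF1 and AID-HA-GANP1, and these lines are written here as AID-NXF1, AID-GANP, AID-TPR, RANGAP1-AID, NUP50-AID and NUP153-AID. TPR, NUP153 and NUP50 are proteins of the nuclear basket of the pore, RANGAP1 activates the GTPase Ran, NXF1 is the main export receptor of mRNA, and GANP is the scaffold of the TREX-2 complex.

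Every line had 3 untreated libraries. Auxin, at 1 mM, was given for 2 h to AID-TPR, NUP153-AID, RANGAP1-AID, AID-NXF1 and parental cells, and for 3 h to NUP50-AID and AID-GANP cells. Longer times were 8 h in NUP153-AID and RANGAP1-AID cells and 9 h in NUP50-AID cells. AID-TPR cells had a second set of libraries, whose replicates are labelled old1 to old3, untreated or with 2 h or 8 h of auxin, and 6 libraries with Actinomycin D (ActD, which blocks transcription) for 2 h, with or without auxin. The parental line is labelled as original DLD-1. The replicates are independent biological replicates of engineered lines of this 1 parental line, so that the values describe these lines.

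NRF2, encoded by NFE2L2, is a basic leucine zipper factor whose level is set mainly at the protein. In resting cells KEAP1 bridges it to the CUL3 ubiquitin ligase and it is degraded, and electrophiles or oxidants that modify KEAP1 let it accumulate. With a small MAF partner (MAFF, MAFG or MAFK) it binds antioxidant response elements, and BACH1, with the same partners, represses many of these elements, HMOX1 foremost. Among the 8 genes, GCLC and GCLM encode the catalytic and modifier subunits of glutamate-cysteine ligase, which makes the first step of glutathione synthesis, and SLC7A11 is the cystine/glutamate antiporter that imports its cystine. TXNRD1 is the cytosolic thioredoxin reductase and SRXN1 reduces hyperoxidised peroxiredoxins. HMOX1 degrades heme, NQO1 reduces quinones and OSGIN1 is an oxidative stress induced growth inhibitor. NQO1 is also a known target of the aryl hydrocarbon receptor, and SLC7A11 and OSGIN1 respond to other stress factors.

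The genes lie on 7 chromosomes (GRCh38, GENCODE release 44). GCLC (ENSG00000001084) is at chr6:53497341-53616970 on the minus strand. GCLM (ENSG00000023909) is at chr1:93885199-93909456, minus. TXNRD1 (ENSG00000198431) is at chr12:104215779-104350307, plus. SRXN1 (ENSG00000271303) is at chr20:646615-653200, minus. HMOX1 (ENSG00000100292) is at chr22:35380361-35394214, plus. NQO1 (ENSG00000181019) and OSGIN1 (ENSG00000140961) share chromosome 16, at chr16:69706996-69726668, minus, and chr16:83931311-83966332, plus. SLC7A11 (ENSG00000151012) is at chr4:138164097-138242349, minus.

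The core of the antioxidant response element, searched as TGACNNNGC on both strands, is shown where it was found in the promoters of these genes, since it is the sequence feature that NRF2 targets are known for. The windows run from 250 bases before to 50 after the start (RefSeq sequences, build GRCh38.p14). Of the 8 genes, 6 had a window, 7 windows in all, and 3 windows of 2 genes, GCLM and TXNRD1, held a match. Of all 35116 promoters of that length, 4687 (13.3%) held one. Capitals mark the 9 bases of the match, and each line is written 5′ to 3′ on the strand that carries the match.
GCLM, chr1:93909446-93909474, on the strand opposite to the gene: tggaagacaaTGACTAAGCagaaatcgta
TXNRD1, chr12:104215670-104215698, on the gene's strand: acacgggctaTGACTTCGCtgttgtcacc
TXNRD1, chr12:104215761-104215789, on the opposite strand: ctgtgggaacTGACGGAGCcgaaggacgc
TXNRD1, second start, chr12:104286920-104286948, on the opposite strand: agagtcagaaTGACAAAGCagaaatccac
The base of the match farthest upstream lay 34 bases before the start in GCLM, and 99 and 8 bases before the first start of TXNRD1 and 102 before its second start. The windows of GCLC, SRXN1, NQO1 and OSGIN1 did not hold these letters, which says nothing of elements farther away, and HMOX1 and SLC7A11 were not matched to a window.

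Totals per library ranged from 18943661 to 55411411 counts with a median of 32285399.5. Several properties of the libraries touch the results. To begin with, reads were counted in different ways between lines. SRXN1, given in CPM, a count relative to the total of its library, lay at 62.8 to 122 in the 24 libraries of AID-NXF1, AID-GANP, parental and AID-TPR cells without the label old or ActD, at 69.3 to 95.4 in the 9 RANGAP1-AID libraries, and at 1.09 to 5.40 in the other 33. ENSG00000270299, a transcript on the same strand that shares 2292 of its 2528 exon bases, held 98.2 to 99.7% as many counts as SRXN1 in the first 33 libraries and 0 to 6 counts in the others. SRXN1 was therefore compared only within a line and label set, its level in the others rests on 27 to 150 counts, and its values are uncertain wherever reads can be shared with this transcript. NQO1, SLC7A11 and GCLC overlap antisense genes by 575, 865 and 305 exon bases, and OSGIN1 shares 457 exon bases with MLYCD.

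Next, the old AID-TPR libraries of auxin replicate old2 stood apart from replicates old1 and old3 at both times. Over 10397 genes of more than 5 CPM, without the lists described here, the log2 deviations from the mean of the 9 libraries of the set correlated at 0.67 and 0.80 between the 2 h old2 library and the 8 h libraries old1 and old3, and at -0.38 with both other 2 h libraries. The 8 h old2 library correlated at 0.50 with the 2 h library old3, at -0.10 with the 2 h library old1, and at -0.43 and -0.37 with the other 8 h libraries. Each old2 auxin library was thus more like the libraries labelled with the other time than like those of its own. Whether these 2 labels were exchanged was not tested, and the 2 h and 8 h values of this set hold only as far as the labels do. The labels were kept, and the members' results of this set are given with and without the old2 auxin libraries. In addition, in the parental line the libraries labelled untreated held 172 to 206 CPM of CYP1A1, the leading target of the aryl hydrocarbon receptor, and those labelled auxin 9.76 to 14.8 (log2 fold change -3.84, adjusted p = 8.22e-07), whereas CYP1A1 rose by 1.88 to 6.68 on the log2 scale in every tagged line at its short time. Whether the labels of the 2 groups were exchanged was not tested. The parental libraries are therefore named by their labels, and no direction drawn from them stands as an effect of auxin. Lastly, the RNA of the tagged gene checks no label, since auxin acts on the protein: its log2 fold changes lay between -0.06 and 0.29, and no tagged gene passed the test in its own line with the fold set here. Of the 8 epithelial markers of the colon, EPCAM, CDH1, KRT8, KRT18 and CDX2 were high in all 66 libraries (EPCAM 338 to 734, CDX2 69.8 to 358 CPM). KRT20 ran from 6.12 to 186 CPM and VIL1 from 1.34 to 29.6 CPM, and CDX1 was at 0 in 29 libraries. Of the 12 fibroblast, immune and endothelial markers, COL1A2, COL3A1, DCN, LUM and CDH5 were at 0 in 38, 45, 52, 56 and 44 libraries, PTPRC, CD3E and LYZ in 29, 16 and 32, and the highest values were 6.67 for CD68 and 12.6 for VWF.

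Levels are given as CPM scaled by TMM, and between genes as FPKM, which also divides by gene length. In parental libraries labelled untreated NQO1 had the highest level of the 8 genes, 193 FPKM, before TXNRD1 at 121, SRXN1 at 43.9, SLC7A11 at 14.9, GCLM at 6.81, GCLC at 4.68, HMOX1 at 1.99 and OSGIN1 at 1.37 (means, n = 3). HMOX1 and OSGIN1 were thus expressed near the lower end, OSGIN1 with 69 to 386 counts in the untreated libraries. Between libraries labelled untreated the lines already differed in some of the genes, where the parental values hold only as far as their labels do. Among the 4 untreated groups counted alike (parental, AID-NXF1, AID-GANP and AID-TPR), the group means of SLC7A11, HMOX1, NQO1 and OSGIN1 spanned 3.77-, 3.71-, 3.54- and 2.41-fold, and those of TXNRD1, GCLC, GCLM and SRXN1 1.47-, 1.37-, 1.33- and 1.23-fold.

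NQO1 was highest in parental cells at 585 ± 11.5 CPM (SD, n = 3 here and in the values that follow). It was next highest in NUP50-AID cells at 386 ± 54.1, NUP153-AID cells at 312 ± 51.8, AID-GANP cells at 268 ± 37.1 and AID-TPR cells at 244 ± 28.8. It lay at 217 in both the old AID-TPR set and RANGAP1-AID cells, with SDs of 16.6 and 18.1, and was lowest in AID-NXF1 cells at 165 ± 7.46. The libraries of neighbours in this order overlapped, except for parental cells at the top and AID-NXF1 cells at the bottom. SLC7A11 was highest in NUP153-AID cells at 164 ± 59.7 CPM and in parental cells at 147 ± 20, whose libraries overlapped. It was lower in AID-GANP, AID-TPR and NUP50-AID cells at 87.4 ± 13.7, 78.8 ± 12.7 and 68.6 ± 13.6 CPM, which overlapped as well, at 44.8 ± 4.77 in the old AID-TPR set, and lowest in AID-NXF1 and RANGAP1-AID cells at 38.8 ± 3.59 and 33.2 ± 2.5. HMOX1 followed another order, with the old AID-TPR set at 11.5 ± 1.5 CPM and NUP153-AID cells at 10.8 ± 1.52 above AID-NXF1 cells at 8.23 ± 0.915 and AID-TPR cells at 6.86 ± 0.815, and AID-GANP cells lowest at 2.22 ± 0.255. NUP50-AID and RANGAP1-AID cells, both at 5.22 CPM, and parental cells at 4.68 ± 0.984 lay between and overlapped. OSGIN1 ran from 7.80 ± 1.5 CPM in parental cells down to 2.73 ± 0.477 in RANGAP1-AID cells, with overlap between all neighbours but the old AID-TPR set and AID-TPR cells. These levels were not tested between lines, since the lines differ in culture and counting.

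Each auxin group was compared with the untreated group of its line and label set to ask whether the RNA of the 8 genes differed. Parental cells had auxin for 2 h only, and no direction is drawn from them. At 3 h, 8 h and 9 h there were no untagged libraries with auxin. Loss of the protein and auxin itself therefore cannot be told apart by these comparisons. Calls required an adjusted p below 0.05 together with a change to 1.3 times the untreated level or more, or to 0.7 times or less. Overlap between the libraries of 2 groups is given as a description only, since the share of all tested genes without overlap is not given. In 8 of the 12 auxin comparisons no member was called by edgeR, and in the other 4 between 1 and 2 were, where between 0.0393% and 15.5% of all tested genes were called. Over all genes, between 558 and 7386 of the 17812 were under an unadjusted p of 0.05 in these comparisons. The genes called were OSGIN1 in AID-NXF1 and AID-GANP cells, TXNRD1 in RANGAP1-AID cells at 8 h, and NQO1 and SLC7A11 in the old AID-TPR set at 8 h. The heat map of all 8 genes and 12 comparisons shows each value. In the 3 comparisons with 1 member called, 8.16, 15.5 and 14.9% of all genes were, so that 1 of 8 is near the background. In these bulk libraries, fewer cells that express a gene and less RNA per cell cannot be told apart.

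**Figure D1:**
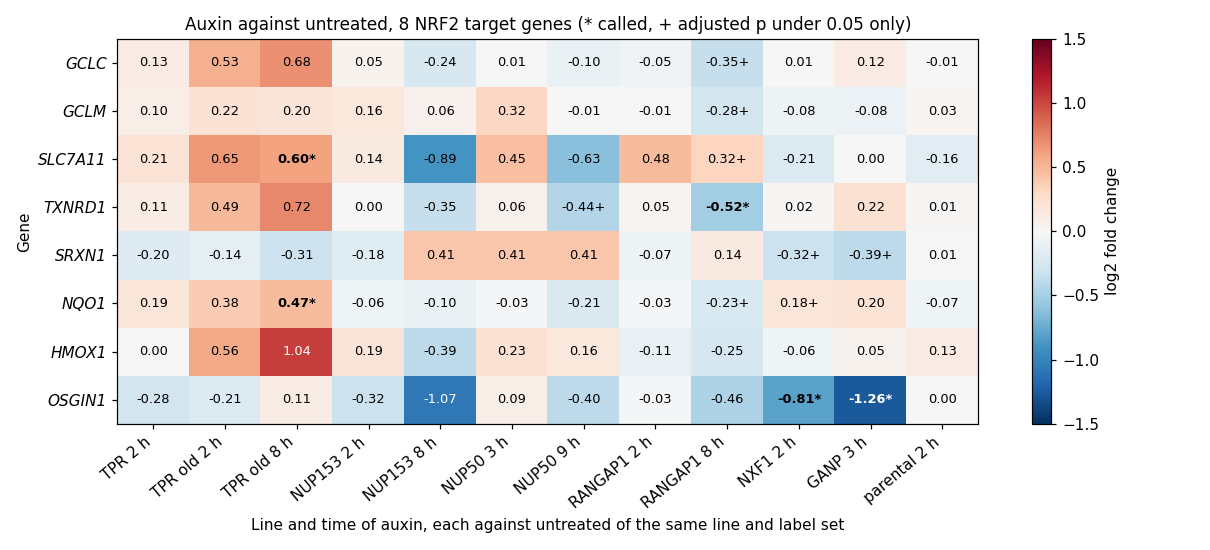
Log2 fold changes of the 8 NRF2 target genes (vertical axis) in the 12 comparisons of libraries labelled auxin with untreated libraries (horizontal axis), from edgeR fits on 3 against 3 libraries. Colour gives the log2 fold change, a star marks a called gene and a plus sign a gene that passed the adjusted p but not the fold, and OSGIN1 shows the lowest called value, -1.26, in AID-GANP cells.

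In AID-TPR cells at 2 h none of the 8 genes was called by edgeR, against a background of 0.511% of tested genes, 1 was under an unadjusted p of 0.05, and DESeq2 called 0. The median log2 fold change of the 8 was 0.10, against 0.01 over all tested genes. Of the glutathione genes, GCLC was at 44, 45.1 and 43.5 CPM in untreated cells and at 48.3, 49.7 and 47.1 after auxin, a log2 difference of 0.13 (SE 0.065, adjusted p = 0.586). Its auxin libraries all lay above the untreated ones, but the difference was not past the threshold. SRXN1 was at 117, 106 and 108 CPM without and 105, 86.1 and 98.2 with auxin (log2 -0.20, SE 0.084, adjusted p = 0.5), the other gene of the 8 whose groups did not overlap. No share of all genes without overlap stands beside these, and neither gene passed the test. The other 6 genes overlapped between the groups, with log2 values from -0.28 for OSGIN1 to 0.21 for SLC7A11.

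The old AID-TPR set gave larger values with a larger spread. At 2 h again no member was called by edgeR, with 0.455% of all tested genes called, 1 member under an unadjusted p of 0.05 and none called by DESeq2. The median of the 8 was 0.44. GCLC was at 51.3, 48.3 and 52.4 CPM untreated and at 53.5, 115 and 52.8 after 2 h of auxin, and HMOX1 at 13.2, 10.3 and 11.1 untreated and 12, 30.4 and 9.07 after auxin. In each the old2 library alone was high. In TXNRD1 and NQO1 old2 was again the highest, with old1 also above the untreated libraries, at 669.9, 891 and 458 CPM and at 258, 391 and 204 CPM after 2 h, from 585, 435 and 414 and from 236, 207 and 208 in untreated cells. The member under an unadjusted p of 0.05 was SLC7A11. It was at 58.3, 96.4 and 56.7 CPM after 2 h, above its untreated libraries at 45.0, 49.5 and 40 (log2 0.65, SE 0.203, adjusted p = 0.264). Without the old2 library at 2 h no member was called by edgeR either, against 0.719% of all genes. The median of the 8 was then 0.07, and HMOX1 was at -0.12 in place of 0.56.

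At 8 h NQO1 and SLC7A11 rose and were called, where 3.61% of all tested genes were. NQO1 was at 336, 266 and 309 CPM after 8 h, above each of its untreated libraries (log2 0.47, SE 0.107, adjusted p = 0.0465). SLC7A11 was at 67.9, 75.6 and 62.2 CPM after 8 h and at 45.0, 49.5 and 40 in untreated cells (log2 0.60, SE 0.140, adjusted p = 0.048). For both genes the groups did not overlap. SLC7A11 already had a log2 of 0.65 at 2 h, where it was not called. GCLC, at 96.6, 56.0 and 94.8 CPM, TXNRD1, at 1104, 493 and 802 CPM, and HMOX1, at 33.8, 8.15 and 30.8 CPM, were high in 2 of the 3 libraries, and the old2 library lay at or near the untreated level. Their log2 values of 0.68, 0.72 and 1.04 were not past the threshold (adjusted p = 0.0642, 0.106 and 0.155). Of the 8 genes, 5 were under an unadjusted p of 0.05, as were 4313 of all 17812 genes, the median of the 8 was 0.54, and DESeq2 called GCLC, TXNRD1, NQO1 and SLC7A11.

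Without the 8 h old2 library, edgeR called 5 of the 8 genes, all higher after auxin, where 21% of all genes were called. HMOX1 was then at a log2 of 1.45 (SE 0.146, adjusted p = 0.000164), TXNRD1 at 0.96 (SE 0.167, adjusted p = 0.00287) and GCLC at 0.88 (SE 0.107, adjusted p = 0.000455). NQO1 and SLC7A11 stayed called at 0.53 and 0.50 (adjusted p = 0.00633 and 0.0185). GCLM, SRXN1 and OSGIN1 were not called, at 0.20, -0.28 and 0.32. Leaving out any other 1 of the 6 libraries left no member called, with NQO1 between 0.40 and 0.51 and SLC7A11 between 0.52 and 0.70.

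The 8 h libraries were also compared with the 2 h libraries directly, which needs no untreated library. With all 6 libraries no gene of any kind was called by edgeR (0%, with 48 genes under an unadjusted p of 0.05 and none of them a member, DESeq2 not run on this comparison). Without the old2 library of each time, a comparison chosen after the data were seen, 4.67% of genes were called. HMOX1 was then higher at 8 h by 1.58 on the log2 scale (adjusted p = 0.00432) and GCLC by 0.81 (adjusted p = 0.0102). The other 6 genes were not called, SLC7A11 among them at 0.14. The aryl hydrocarbon receptor targets moved with the old2 libraries in the opposite sense. CYP1A1 was at 404, 47.3 and 334 CPM at 2 h and at 91.3, 277 and 43.0 at 8 h, from 1.58 to 3.51 in untreated cells, and TIPARP at 408, 148 and 444 and then 204, 484 and 141. In both genes old2 was the low library at 2 h and the high one at 8 h. The part of these libraries in the results of the set was not tested beyond leaving them out.

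**Figure D2:**
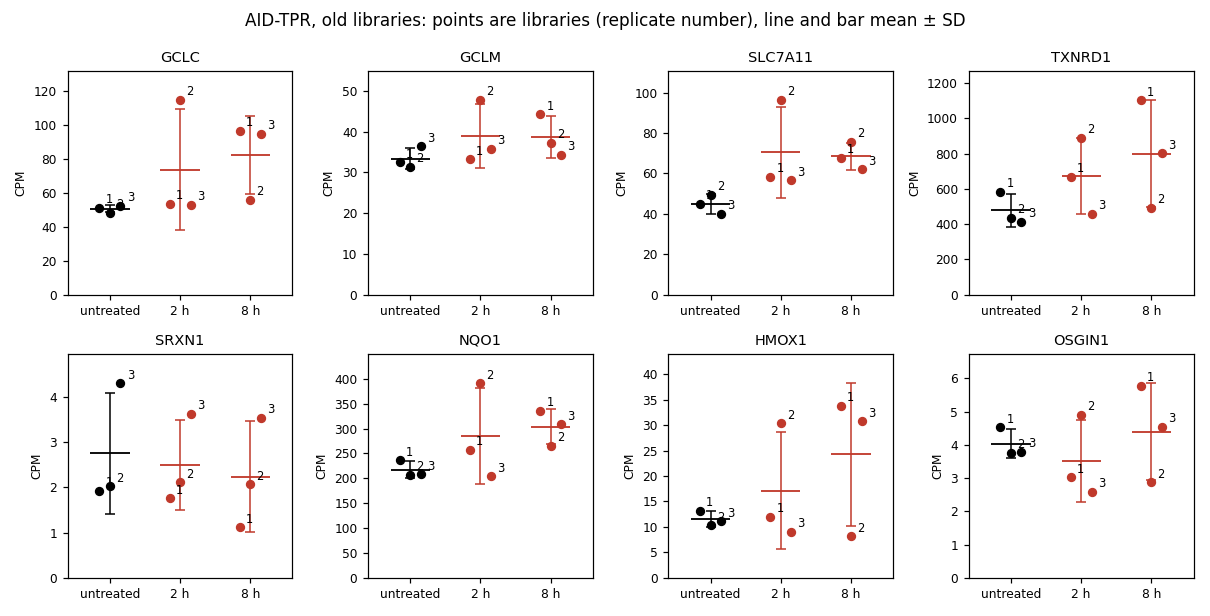
CPM (vertical axes) of the 8 NRF2 target genes in the 9 libraries of the old AID-TPR set, grouped on the horizontal axis as untreated, 2 h and 8 h of auxin, with 1 numbered point per library (1 to 3 for old1 to old3) and lines and bars at mean ± SD, untreated in black and auxin in red. In HMOX1 and GCLC replicate old2 is the highest library at 2 h (30.4 and 115 CPM) and the lowest auxin library at 8 h (8.15 and 56.0 CPM).

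OSGIN1 fell in both lines whose degron sits on an RNA export factor. In AID-NXF1 cells it went from 2.87, 3.42 and 3.42 CPM to 1.78, 1.52 and 2.30 after 2 h of auxin, a log2 fold change of -0.81 (SE 0.176, adjusted p = 0.0073). In AID-GANP cells it went from 5.97, 5.82 and 4.71 CPM to 2.16, 2.36 and 2.40 after 3 h, a log2 fold change of -1.26 (SE 0.139, adjusted p = 8.45e-05). All auxin libraries lay below all untreated libraries in both lines. It was the only member called in either line, where 8.16% of all tested genes were called in AID-NXF1 cells and 15.5% in AID-GANP cells. The call held in 6 of 6 fits with 1 library left out in each line, with log2 values of -1.01 to -0.67 and of -1.36 to -1.18. It was lost in AID-NXF1 cells in a fit over 60 libraries (adjusted p = 0.147). In that edgeR fit OSGIN1 was called in NUP153-AID cells at 8 h (log2 -1.07, adjusted p = 0.0480). Lower values were thus not confined to these 2 lines. In the reported fits, none of them called, the long-time values were -1.07 in NUP153-AID, -0.46 in RANGAP1-AID and -0.40 in NUP50-AID cells. In the old AID-TPR set at 8 h it was at 0.11. OSGIN1 rests on few reads, 90 to 107 counts in untreated AID-NXF1 libraries and 150 to 188 in untreated AID-GANP libraries. MLYCD, which shares exon bases with it, was at a log2 of 0.04 in AID-NXF1 and -0.39 in AID-GANP cells.

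SRXN1 was also lower after auxin in these lines and passed the adjusted p, but not the fold. It was at 111, 113 and 108 CPM in untreated AID-NXF1 cells and at 96.6, 92.0 and 81.1 after auxin (log2 -0.32, SE 0.061, adjusted p = 0.00307). In AID-GANP cells it was at 87.6, 93.7 and 96.1 CPM and then 74.1, 68.4 and 70.9 (log2 -0.39, SE 0.070, adjusted p = 0.00212). The groups did not overlap in either line, and the transcript that shares its exons had nearly the same values, -0.33 and -0.39. NQO1 was slightly higher in AID-NXF1 cells, at 187, 195 and 189 CPM after auxin from 159, 163 and 173 (log2 0.18, SE 0.050, adjusted p = 0.0232), again without reaching the fold. HMOX1, with log2 values of -0.06 and 0.05, and the glutathione genes, between -0.21 and 0.12, showed no difference past the test in either line. The medians of the 8 were -0.07 in AID-NXF1 and 0.02 in AID-GANP cells, both near the medians of all genes, 0.01 and 0.01.

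**Figure D3:**
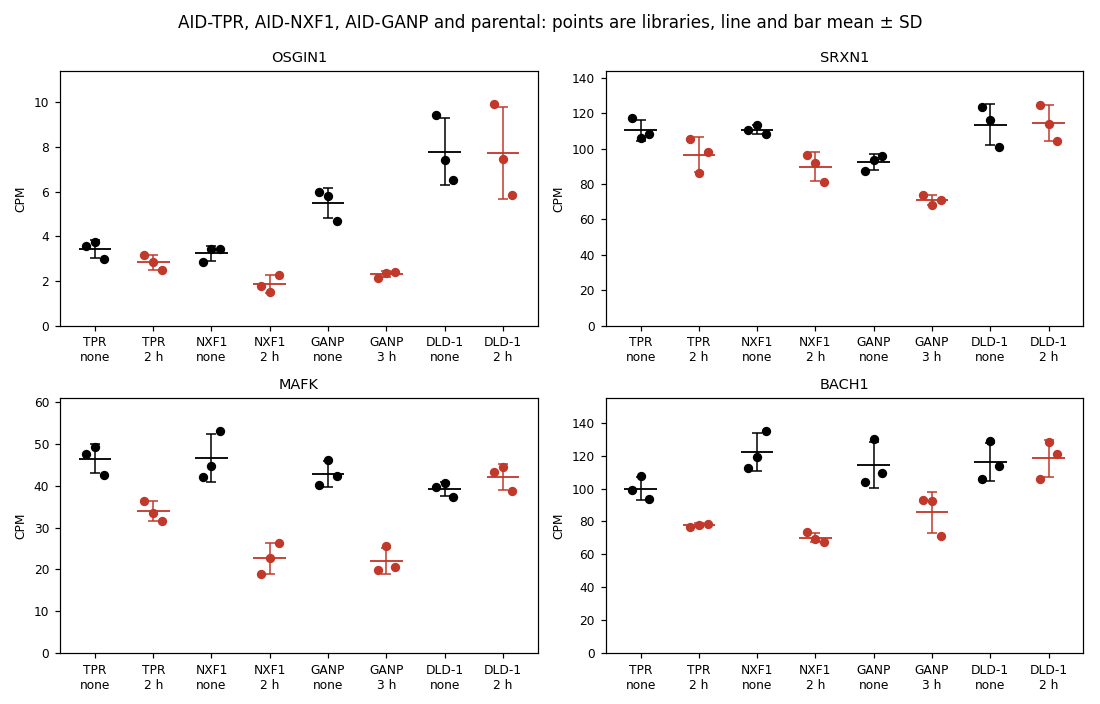
CPM (vertical axes) of OSGIN1, SRXN1, MAFK and BACH1 in AID-TPR, AID-NXF1, AID-GANP and parental cells (horizontal axis), with 1 point per library and lines and bars at mean ± SD, libraries labelled untreated (none) in black and auxin in red. OSGIN1 and MAFK lie lower after auxin in AID-NXF1 and AID-GANP cells, with no overlap, and overlap in parental cells.

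In RANGAP1-AID cells at 2 h no member was called by edgeR, with 0.589% of all genes called and 1 member under an unadjusted p of 0.05. That member was SLC7A11, which was at 32.1, 36.1 and 31.5 CPM in untreated cells and at 39.2, 50 and 50.1 after 2 h (log2 0.48, SE 0.115, adjusted p = 0.165). DESeq2 called it, as did edgeR with the replicate number as a block (log2 0.48, adjusted p = 8.02e-06). At 8 h it was at 37.0, 45.7 and 42.4 CPM (log2 0.32, SE 0.093, adjusted p = 0.0263), under the fold. In both comparisons no auxin library reached down to the untreated ones.

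At 8 h TXNRD1 fell in RANGAP1-AID cells, the only member called, where 14.9% of all genes were. It was at 503, 526 and 400.3 CPM untreated, 516, 543 and 424 after 2 h, and 354, 355 and 290.2 after 8 h (log2 -0.52, SE 0.113, adjusted p = 0.00747). All 8 h libraries lay below all others. The fold was just at the limit, and the call was lost for the fold alone, with adjusted p up to 0.038, when untreated replicate 1 (log2 -0.48), untreated replicate 2 (-0.44) or 8 h replicate 3 (-0.43) was left out. GCLC, GCLM and NQO1 were lower by 0.35, 0.28 and 0.23 on the log2 scale (adjusted p = 0.00877, 0.0273 and 0.0427), each without overlap of the groups and each short of the fold. GCLC was at 53.5, 53.3 and 48.9 CPM untreated and at 44.3, 40.5 and 37.8 after 8 h. Of the 8 genes, 6 were under an unadjusted p of 0.05 at 8 h, as were 6915 of all 17812 genes, and the median of the 8 was -0.26, against -0.01 over all genes. In the direct comparison of 8 h with 2 h, where 8.8% of all genes were called, TXNRD1 was again the only member called (log2 -0.57, SE 0.113, adjusted p = 0.00765). Without 8 h replicate 3 or 2 h replicate 2 it was at -0.48 and -0.49 and missed the fold.

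In NUP153-AID cells no member was called at either time against untreated cells. At 2 h, where 0.0393% of genes were called, none of the 8 was under an unadjusted p of 0.05, DESeq2 called 0, and all 8 overlapped between the groups. At 8 h, where 1.34% of genes were called, edgeR called none, 6 of the 8 were under an unadjusted p of 0.05, as were 2459 of all 17812 genes, and DESeq2 called OSGIN1. TXNRD1 was at 643, 604 and 771 CPM untreated and at 540.3, 551 and 495 after 8 h (log2 -0.35, SE 0.091, adjusted p = 0.0931). HMOX1 was at 10.1, 9.80 and 12.6 CPM untreated and at 8.24, 8.52 and 7.97 after 8 h (log2 -0.39, SE 0.122, adjusted p = 0.155). For both genes the groups did not overlap, and neither passed the test. OSGIN1 had a log2 of -1.07 and SLC7A11 of -0.89, with overlapping groups, and SLC7A11 was called at -1.24 without 8 h replicate 1. GCLC was at -0.24. SRXN1, on few counts, went the other way, from 2.05, 1.89 and 2.17 CPM to 2.98, 2.94 and 2.20 (log2 0.41, SE 0.177, adjusted p = 0.332).

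Between 8 h and 2 h of auxin in NUP153-AID cells, HMOX1 and SLC7A11 were lower at the later time and were called, where 1.95% of all genes were. HMOX1 was at 12, 10.3 and 14.7 CPM at 2 h (log2 of 8 h over 2 h -0.60, SE 0.134, adjusted p = 0.0409). SLC7A11 was at 182, 131 and 228 CPM at 2 h and at 125, 70.5 and 69.4 at 8 h, from 153, 111 and 229 in untreated cells (log2 -1.04, SE 0.241, adjusted p = 0.0463). For both the times did not overlap. Both calls were lost when 8 h replicate 2, 8 h replicate 3, 2 h replicate 1 or 2 h replicate 3 was left out, with log2 values of -0.61 to -0.45 for HMOX1 and -1.03 to -0.83 for SLC7A11. TXNRD1 was lower by 0.36 on the log2 scale (adjusted p = 0.0198), short of the fold.

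NUP50-AID cells had no call of a member by edgeR at 3 h (0.219% of genes called, 1 member under an unadjusted p of 0.05, DESeq2 0). At 9 h there was none either (0.371% called, 2 members and 2940 of all genes under an unadjusted p of 0.05), and DESeq2 called SLC7A11. TXNRD1 was at 748, 743 and 789 CPM untreated, 741, 773 and 847 after 3 h and 574, 531 and 591 after 9 h. Its 9 h libraries lay below all others, with a log2 of -0.44 against untreated cells (SE 0.062, adjusted p = 0.0105) that was short of the fold. SLC7A11 was at 54.6, 69.5 and 81.7 CPM untreated, 61.6, 73.9 and 144 after 3 h and 47.4, 34.4 and 52.1 after 9 h (log2 -0.63 at 9 h, SE 0.154, adjusted p = 0.0857). It was called at -0.77 without untreated replicate 1. Between 9 h and 3 h, where 0.258% of genes were called, edgeR called no member and 4 of the 8, and 1486 of all 17812 genes, were under an unadjusted p of 0.05, DESeq2 not run. TXNRD1 was lower at 9 h by 0.49 on the log2 scale (adjusted p = 0.0111), short of the fold, and was called at -0.52 without 9 h replicate 3 and at -0.53 without 3 h replicate 1. SLC7A11 had a log2 of -1.08 (adjusted p = 0.189) and was called with the replicate block (-1.01, adjusted p = 1.62e-05). TXNRD1 was the gene of the 8 whose long-time libraries lay below both the untreated and the short-time libraries in NUP153-AID, NUP50-AID and RANGAP1-AID cells. Against untreated cells it was called in RANGAP1-AID cells alone. The share of all tested genes with such an order is not given, so that it is a description only.

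**Figure D4:**
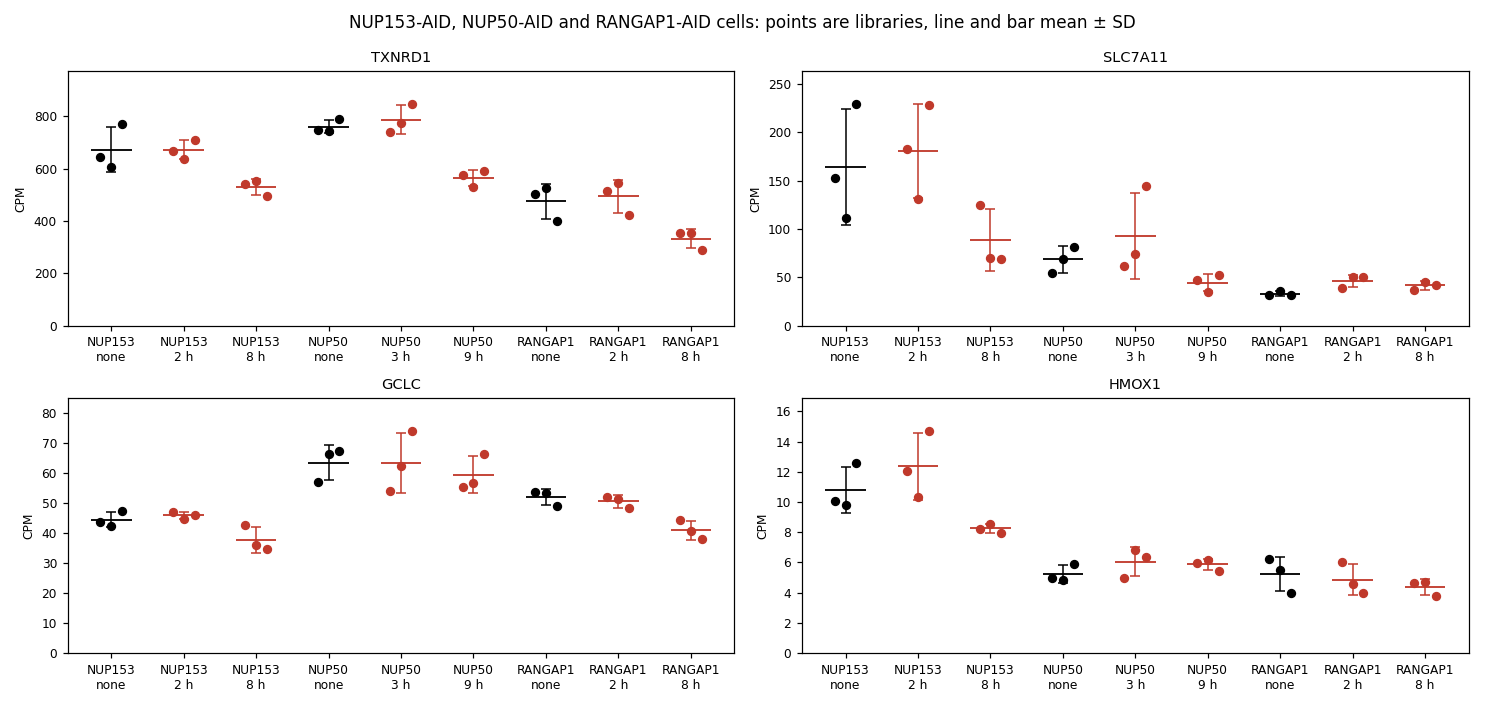
CPM (vertical axes) of TXNRD1, SLC7A11, GCLC and HMOX1 in NUP153-AID, NUP50-AID and RANGAP1-AID cells (horizontal axis) untreated, at the short time (2 h or 3 h) and at the long time (8 h or 9 h), with 1 point per library and lines and bars at mean ± SD, untreated (none) in black and auxin in red. The long-time libraries of TXNRD1 lie below all others of their line, at 495 to 551, 531 to 591 and 290.2 to 355 CPM.

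In parental cells, between libraries labelled auxin and untreated, no member was called by edgeR or DESeq2 and none was under an unadjusted p of 0.05, where 0.0561% of genes were called. The log2 values of the 8 lay between -0.16 and 0.13, all 8 groups overlapped, and the median was 0.00. NQO1 was at 575, 597 and 582 CPM in libraries labelled untreated and at 548, 527 and 597 in those labelled auxin, while CYP1A1 differed as described above. In AID-TPR cells under ActD, auxin made no call of any gene in the reported fit (0%, with 78 genes under an unadjusted p of 0.05 in edgeR, and none by DESeq2 with 19 under 0.05), and no member was under an unadjusted p of 0.05. The largest values of the members in this fit were 0.35 for OSGIN1 and 0.34 for SRXN1, with SEs of 0.449 and 0.436, on low counts. These libraries met the rule for pairs given below. With the replicate number as a block, edgeR called 5 genes and no member, with 937 genes under an unadjusted p of 0.05.

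Whether an effect differs between lines was tested as an interaction at the short times. These were 3 h in AID-GANP and NUP50-AID cells and 2 h in the others, and the part of the unequal time was not tested. OSGIN1 was the only member with a called difference: its log2 fold change was higher in AID-TPR than in AID-GANP cells by 0.99 (SE 0.206, adjusted p = 0.0106), where 5.49% of genes were called. In AID-TPR cells it was at 3.58, 3.75 and 2.99 CPM untreated and 3.16, 2.88 and 2.48 after auxin, a log2 of -0.28. The difference was called in 12 of 12 fits with 1 library left out. Between AID-TPR and AID-NXF1 cells the difference of 0.54 was not past the test (SE 0.241, adjusted p = 0.351), nor was that of 0.42 between AID-NXF1 and AID-GANP cells (SE 0.227, adjusted p = 0.434). No member was called by edgeR for AID-TPR against NUP153-AID (0.584% of genes), NUP50-AID (0.118%), RANGAP1-AID (0.298%), AID-NXF1 (2.1%) or the old AID-TPR set (0%, with 574 genes under an unadjusted p of 0.05), or for AID-NXF1 against AID-GANP cells (2.16%). In these 6 comparisons 0, 1, 0, 1, 0 and 1 of the 8 genes were under an unadjusted p of 0.05, and DESeq2 was not run. SLC7A11 differed by 0.42 between AID-TPR and AID-NXF1 cells (adjusted p = 0.415) and was called there with the replicate block (0.41, adjusted p = 0.000172). The comparisons with AID-TPR share its 6 libraries.

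A list of 8 regulators was followed: NFE2L2 itself, KEAP1, CUL3, BACH1, MAFF, MAFG, MAFK and SQSTM1, the autophagy receptor that binds KEAP1. In AID-NXF1 cells, where 8.16% of all tested genes were called, 4 of the 8 fell, MAFK by 1.06, MAFF by 0.97, BACH1 by 0.82 and MAFG by 0.65 on the log2 scale (adjusted p = 7.54e-05, 0.00586, 1.43e-05 and 0.0028). In AID-GANP cells, with 15.5% of all genes called, the 3 small MAF genes fell, MAFK by 0.98, MAFF by 0.91 and MAFG by 0.56 (adjusted p = 6.54e-05, 0.00794 and 0.00397), and BACH1 was lower by 0.43 (adjusted p = 0.0191), short of the fold. NFE2L2, KEAP1, CUL3 and SQSTM1 were called in neither line. The calls were kept in all 6 fits with 1 library left out, except that of MAFG in AID-GANP cells, kept in 4 of 6. In AID-NXF1 cells the small MAF partners of NRF2 and its competitor BACH1 were thus all lower at the level of RNA.

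MAFK was at 42.1, 44.7 and 53.1 CPM in untreated AID-NXF1 cells and at 18.9, 22.7 and 26.4 after auxin. In AID-GANP cells it went from 40.1, 46.1 and 42.3 CPM to 19.9, 25.6 and 20.5. In AID-TPR cells it was at 47.6, 49.3 and 42.6 CPM untreated and at 36.4, 33.6 and 31.7 after auxin. The groups were apart in all 3 lines. The value in AID-TPR cells was -0.46 on the log2 scale (adjusted p = 0.0469), as that of BACH1 was -0.37 (adjusted p = 0.0469), both short of the fold. BACH1 was at 112, 119 and 135 CPM in untreated AID-NXF1 cells and at 73.3, 69.4 and 67.7 after auxin. MAFK fell less in AID-TPR cells at 2 h than in AID-GANP cells at 3 h (difference 0.52, adjusted p = 0.0399). BACH1 fell less in AID-TPR than in AID-NXF1 cells (0.46, adjusted p = 0.0232). In these 2 tests of a difference 5.49 and 2.1% of all genes were called.

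**Figure D5:**
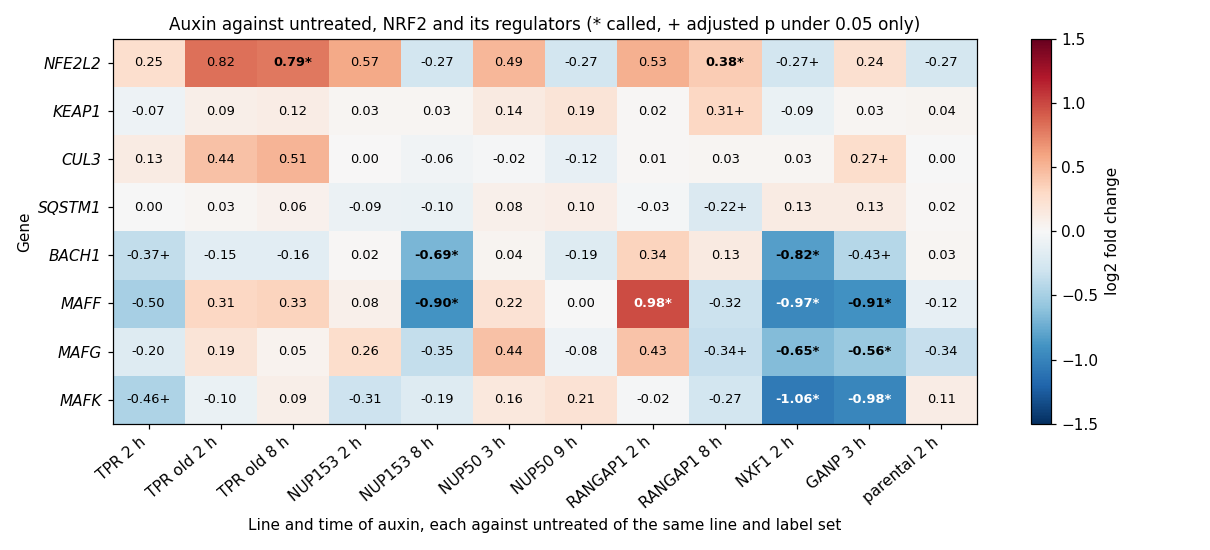
Log2 fold changes of the 8 regulators (vertical axis) in the 12 comparisons of libraries labelled auxin with untreated libraries (horizontal axis), from edgeR fits on 3 against 3 libraries. Colour gives the log2 fold change, a star marks a called gene and a plus sign one that passed the adjusted p only, and the small MAF genes are called in the AID-NXF1 and AID-GANP columns.

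NFE2L2 had log2 values of 0.25 to 0.82 at the short times in the lines tagged on TPR, NUP153, NUP50 and RANGAP1, none of them called. In parental cells it was at 68.2, 77.3 and 74.5 CPM in libraries labelled untreated and at 55.9, 68.3 and 58.1 in those labelled auxin. The part of auxin itself in these values was not tested. At 8 h NFE2L2 was higher and called in the old AID-TPR set and in RANGAP1-AID cells, where 3.61 and 14.9% of all genes were called. In the old AID-TPR set it was at 49.0, 56.4 and 71.1 CPM untreated, 91.6, 108 and 113 after 2 h and 113, 102 and 92.9 after 8 h. The auxin libraries lay above all untreated ones at both times, and old2 did not stand apart in this gene. The log2 values were 0.82 at 2 h (adjusted p = 0.0701) and 0.79 at 8 h (SE 0.154, adjusted p = 0.0316), and 0.77 at 8 h without old2. The 8 h call was kept in 2 of 6 fits with 1 library left out. In RANGAP1-AID cells NFE2L2 was at 62.1, 69.2 and 67.0 CPM untreated and at 84.5, 90.0 and 84.4 after 8 h (log2 0.38, SE 0.068, adjusted p = 0.0028), just past the fold and called in 4 of 6 such fits.

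In NUP153-AID cells NFE2L2 was at 91.1, 81.1 and 93.5 CPM untreated, 133, 112 and 149 at 2 h and 66.5, 74.1 and 79.3 at 8 h, so that the 2 h libraries lay highest and the 8 h libraries lowest. The 8 h level was below the 2 h level by a log2 of 0.85 (adjusted p = 0.00279), and in NUP50-AID cells the 9 h level was below the 3 h level by 0.76 (adjusted p = 0.0167). MAFG was likewise lower at the long than at the short time in NUP153-AID, NUP50-AID and RANGAP1-AID cells (log2 -0.62, -0.52 and -0.77, all called). In these long against short comparisons 1.95, 0.258 and 8.8% of all genes were called. In parental cells MAFG was at 67.8, 66.1 and 61.9 CPM in libraries labelled untreated and at 53.6, 53.2 and 47.2 in those labelled auxin. MAFF rose at 2 h in RANGAP1-AID cells, from 10.1, 8.98 and 12.3 CPM to 23.7, 19.1 and 19.4 (log2 0.98, adjusted p = 0.0114), where 0.589% of all genes were called. It was at 7.95, 7.61 and 9.59 CPM at 8 h, below each 2 h library. In NUP153-AID cells BACH1 and MAFF fell at 8 h (log2 -0.69 and -0.90, adjusted p = 0.0104 and 0.017), where 1.34% of all genes were called. Both calls were kept in 3 of 6 fits with 1 library left out. KEAP1, CUL3 and SQSTM1 were called in no auxin comparison with all libraries.

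Of 25 other known NRF2 targets, 23 could be tested, among them the aldo-keto reductases, ferritin subunits and multidrug resistance pumps. Of the 12 auxin comparisons, 11 had none of the 23 called by edgeR, where 0.0393% to 15.5% of all genes were called. Between 0 and 11 of the 23, and between 558 and 7386 of all 17812 genes, were under an unadjusted p of 0.05. The highest, 11, was in AID-NXF1 cells, where 6298 of all 17812 genes were under it. In RANGAP1-AID cells at 8 h, with 14.9% of all genes called, ABCC2, an export pump, and SLC48A1, a heme transporter, rose (log2 0.77 and 0.38, adjusted p = 0.0320 and 0.0249), and the median of the 23 was -0.11. The transketolase TKT, FTL, the ferritin light chain, and the pump ABCC1 were lower there by 0.30, 0.35 and 0.26 on the log2 scale and passed the adjusted p but not the fold. In the old AID-TPR set at 8 h without old2, AKR1B10, FTL and UGDH were higher (1.22, 0.39 and 0.58) and SLC48A1 lower (-1.20), 4 of 23 called where 21% of all genes were, and the median was 0.16.

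Lists that overlap NRF2 biology were counted in the same fits, against the shares of all genes called there. Of 4 aryl hydrocarbon receptor genes, between 2 and 4 rose at the short time in each tagged line without ActD, where 0.0393% to 15.5% of all genes were called, while NQO1, which this receptor also activates, was called at none of these times. In the libraries labelled auxin of parental cells 3 of the 4 were lower, with 0.0561% of all genes called. Of 6 genes of ATF4, a stress factor that also acts on SLC7A11, ATF4, CHAC1 and SESN2 rose in RANGAP1-AID cells at 8 h (log2 0.59, 0.91 and 0.52, with 14.9% of all genes called), where SLC7A11 was at 0.32. ATF4 and CHAC1 fell in AID-NXF1 cells (-0.54 and -1.95, with 8.16% called) and TRIB3 and CHAC1 in AID-GANP cells (-0.53 and -1.40, with 15.5% called), where SLC7A11 was at -0.21 and 0.00. In NUP153-AID cells CHAC1 and SESN2 were lower at 8 h than at 2 h (-0.86 and -0.78, with 1.95% called), as SLC7A11 was. The part of these factors in the members' values was not tested.

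Across the 12 auxin comparisons the log2 fold changes of GCLC ran with those of TXNRD1 (Pearson's r 0.95) and HMOX1 (0.91), a description over 12 points that share untreated libraries and include the old AID-TPR set. NQO1 ran with TXNRD1 (0.93) and GCLC (0.91) as well, and HMOX1 with TXNRD1 (0.81) and NQO1 (0.70). The remaining pairs had a lower r. The r of SRXN1 with the other members went from -0.71 with NQO1 to 0.10 with OSGIN1. That of OSGIN1 with members other than SRXN1 went from 0.09 with NQO1 to 0.61 with SLC7A11. Among 11354 genes of at least 5 CPM, those most like each member over the same 12 points were ATAD1 and SRSF10 for GCLC (r 0.98 each), LARP4B and PRDM10 for GCLM (0.91 and 0.90), RANBP9 and HOOK1 for TXNRD1 (0.98 each) and PCNT for SRXN1 (0.96). They were ZC3H11A and WDR43 for HMOX1 (0.94 and 0.93), DNM1L and TMX3 for NQO1 (0.98 each), IL33 and NCOA7 for SLC7A11 (0.94 and 0.93) and CCNT1 and RBM48 for OSGIN1 (0.94 and 0.93).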

How the data were processed

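RNA was measured by RNA-seq in 66 libraries. Per the labels and the methods, total RNA was depleted of ribosomal RNA, and the authors aligned reads with STAR to GRCh38 and counted them per Ensembl gene with featureCounts. The submitters' processing notes name STAR 2.6.1c, featureCounts 1.5.2 and CASAVA 1.8.2. The deposited files hold whole-number counts per gene, without normalization. Genes with more than 1 CPM in at least 4 of the 60 libraries without ActD were tested (17812), and symbols, lengths and coordinates came from GENCODE release 44, matched for 56948 identifiers.

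From these counts, edgeR's quasi-likelihood test (edgeR 4.0.16, limma 3.58.1, R 4.3.3, TMM, Benjamini-Hochberg adjustment over all tested genes) compared each auxin group with its untreated group, long with short times, and effects between lines by an interaction. SEs are the log2 fold change over the square root of F. DESeq2 1.42.0, other normalizations, filters and fits were alternatives, and the test was checked on simulated counts.

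Named genes are the 8 members and 8 regulators in every comparison, 25 other NRF2 targets and the aryl hydrocarbon receptor and ATF4 genes where called, and the 2 genes most like each member. The members and lists were chosen with earlier results of these data known. Tagged genes and cell type markers were checks. Replicates differed by more than counting noise (chi-square per degree of freedom 4.07 to 67.4 over 66 pairs). The reported tests did not use replicate numbers as pairs, and a fit with them as a block was an alternative in every comparison. Same-numbered libraries counted as paired where all 3 pairs of log2 deviations correlated above 0.1, in 9 of 17 comparisons. These were AID-TPR (plain and under ActD), NUP153-AID and RANGAP1-AID at 2 h, RANGAP1-AID at 8 h, AID-NXF1 and AID-GANP. The long against short comparisons of NUP50-AID and RANGAP1-AID cells were the others.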

Additional observations from a re-analysis of the deposited data

Results flagged for a closer look

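Several effects differed between times or lines by a test of the difference itself (edgeR's quasi-likelihood test, called as in the report). Between 8 h and 2 h of auxin in NUP153-AID cells the log2 differences were -0.60 for HMOX1, -1.04 for SLC7A11, -0.85 for NFE2L2, -0.71 for BACH1, -0.99 for MAFF and -0.62 for MAFG. Between 9 h and 3 h in NUP50-AID cells they were -0.76 for NFE2L2 and -0.52 for MAFG. Between 8 h and 2 h in RANGAP1-AID cells they were -0.57 for TXNRD1, -1.30 for MAFF and -0.77 for MAFG. Of all tested genes, 1.95, 0.258 and 8.8% were called in these comparisons, in that order.

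Between lines at the short time, the log2 fold change in AID-TPR cells less that in RANGAP1-AID cells was -0.71 for BACH1, -1.48 for MAFF and -0.63 for MAFG. Less that in AID-NXF1 cells it was 0.46 for BACH1, and less that in AID-GANP cells it was 0.99 for OSGIN1 and 0.52 for MAFK. These lines differ in clone and, for RANGAP1-AID cells, in how reads were counted. AID-GANP cells also had auxin for 3 h, against 2 h in AID-TPR cells. The part of these in the differences was not tested. With groups of 3, no library could be tested for standing apart from its own group.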

How the results depend on the processing

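Of the members' values under alternatives, 2674 kept their side of the threshold, 54 became called and 32 lost the call, and none of them changed direction while called. The old AID-TPR set at 8 h, with 2 members called, had 0 with library sizes alone and in a fit of the 9 libraries of the line, 4 with DESeq2 and in the fit over 60 libraries, 5 without a filter, and 0 to 5 with 1 library left out. At 2 h that set had 0, with 3 without a filter and 2 in the fit over 60 libraries. The 8 h against 2 h comparison, with 0, had 2 without both old2 libraries, chosen after the data were seen.

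NUP153-AID at 8 h, with 0, had 2 without a filter and over 60 libraries, 1 with DESeq2 and 0 to 1 with 1 library left out, and 8 h against 2 h, with 2, had 0 to 2. NUP50-AID at 3 h, with 0, had 1 without a filter. At 9 h, with 0, it had 1 with a fold of 1.3 in both directions, adjusted p alone, no filter or DESeq2, and 0 to 1 with 1 library left out, and 9 h against 3 h had 0 to 2. RANGAP1-AID at 2 h, with 0, had 1 without a filter or with DESeq2 and 0 to 1 with 1 library left out. At 8 h, with 1, it had 5 with adjusted p alone, 0 without a filter or with edgeR's own filter, and 0 to 2 with 1 library left out, and 8 h against 2 h had 0 to 1. AID-NXF1, with 1, had 3 with adjusted p alone and 0 over 60 libraries, and AID-GANP, with 1, had 2 with adjusted p alone or a fold of 1.3. The cause was not tested.

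With the replicate block, the old AID-TPR set at 8 h had 4 members called, NUP50-AID at 9 h and 9 h against 3 h had 1, RANGAP1-AID at 2 h 1, NUP153-AID 8 h against 2 h 1, and AID-TPR against NUP50-AID and against AID-NXF1 cells 1 each. The block changed the count of no other comparison. The old AID-TPR set at 8 h, NUP50-AID at 9 h and NUP153-AID 8 h against 2 h did not meet the rule for paired libraries.

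Counts over all genes moved more. Across settings other than leaving out a library they ranged from 85 to 464 in AID-TPR (91 as reported), 64 to 1750 and 164 to 3355 in the old set at 2 h and 8 h (81 and 643), 4 to 134 and 75 to 771 in NUP153-AID (7 and 238), 32 to 212 and 52 to 524 in NUP50-AID (39 and 66), 93 to 468 and 2416 to 4752 in RANGAP1-AID (105 and 2651), 1136 to 3836 in AID-NXF1 (1453), 2536 to 5152 in AID-GANP (2760) and 5 to 52 in parental cells (10). Under ActD, AID-TPR cells ranged from 0 to 5 (0 as reported). With 1 library left out, the old set at 8 h ranged from 5 to 3738. OSGIN1, HMOX1 and, in 33 libraries, SRXN1 rest on few counts, which limits what could be detected there. With 3 libraries a group, a missed threshold does not show that values were alike.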
